A study of Mus musculus with 8 samples.

Results

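The comparison of the T1 population of MUT mice with that of WT mice was made with 4 of the 8 ATAC-seq libraries of the study, namely the 2 whose titles name MUT T1 and the 2 whose titles name WT T1. All were made from haematopoietic stem cells (HSC), the long-term kind, sorted from marrow of mice aged 2 to 3 months. The MUT libraries came from Vav1-cre-iMOSBcl11a-MUT animals and the WT libraries from Vav1-cre-iMOSBcl11a-WT animals, so every group carries the same Vav1-cre driver, which acts in blood cells, and an iMOS Bcl11a allele. The study set out to separate the role of Bcl11a inside HSC from effects that Bcl11a overexpression has on neighbouring wild-type HSC. Which of T1 and T2 carries the Bcl11a transgene, the strain, the sex and the number of animals per library are not given in the sources used here. The labels number the libraries of a group 1 and 2 and do not name the animals behind them. The other 4 libraries (MUT T2 and WT T2) took no part in choosing regions and were used only to look again at regions chosen in T1.

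ATAC-seq uses a transposase that cuts DNA where nucleosomes leave it free, so a peak of fragments marks an accessible stretch such as an active promoter or enhancer. BCL11A is a zinc-finger transcription factor that recruits repressor complexes, silences the fetal globin genes and is needed for B cells and for HSC function. HSC sit at the top of blood formation and keep promoters and enhancers of stem cell factors open, together with some elements of lineages they have not yet entered.

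The cell type label was set against marker genes. Of 13 HSC markers, 12 had a gene end region in each of the 4 lists, the exception being Mecom. This was so for 1 of 7 B cell, 2 of 6 T and NK cell, 1 of 8 neutrophil and monocyte, 2 of 6 erythroid, 3 of 5 megakaryocyte, and 3 of 5 stromal and endothelial markers. Peak lists hold no read totals, and depth was taken from the genome-wide background that the peak caller used, recovered from the deposited ratio and p-value of each peak. This depth came to 3.38 and 2.03 fragments in MUT T1 replicates 1 and 2, and to 3.24 and 3.29 in WT T1. The lists held 74192 and 63976 peaks in MUT T1, against 71683 and 72719 in WT T1. MUT T1 replicate 2 thus stood apart, with the lowest background and the fewest peaks. Mean peak number was 69084 ± 7224 in MUT T1 and 72201 ± 733 in WT T1 (SD, n = 2 each, exact two-sided permutation p = 1.00, where 0.333 is the smallest p that 2 libraries against 2 allow). Libraries also differed within groups in their sex-linked peaks. All 4 libraries numbered 1, in T1 and T2, had peaks at the Y-linked genes Kdm5d, Eif2s3y, Uty and Ddx3y, and none of the 4 numbered 2 had any. A region inside Xist (X, starting at 103481345) was called in all libraries numbered 2 and in none numbered 1. Each group therefore holds 1 library of each kind, made from different animals, and a region that follows this division cannot be called as gained or lost below.

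Overlapping peaks of the 4 lists (1 bp or more, autosomes and X) formed 85374 regions. A region counted as gained when both MUT T1 libraries and neither WT T1 library called it, and lost in the reverse case. By this rule 1141 regions (1.34%) were gained and 1946 (2.28%) were lost, while 55000 (64.4%) were called in all 4 libraries. Gains were 37.0% of the changed regions. When each list was cut to its 63976 peaks with the highest −log10 p-value, the number of the shortest list, 1456 regions (1.90%) were gained and 1477 (1.93%) lost, and gains were 49.6% of the total. The excess of lost over gained regions in the lists as deposited was thus not present with equal numbers of peaks. Lists of equal length bring the counts of gained and lost regions closer by construction. After thinning to equal depth, which does not fix the number of peaks, 1346 regions were gained and 1845 lost, and gains were 42.2%. Of the regions gained as deposited 602 were also gained with equal numbers, and of those lost 792 were also lost. Just outside the rule lay 2708 regions called in both MUT T1 and 1 WT T1 library, and 7482 called in both WT T1 and 1 MUT T1 library. Calls in 2 libraries against 2 carry no test per region, and the counts are a description of these 4 libraries.

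**Figure D1:**
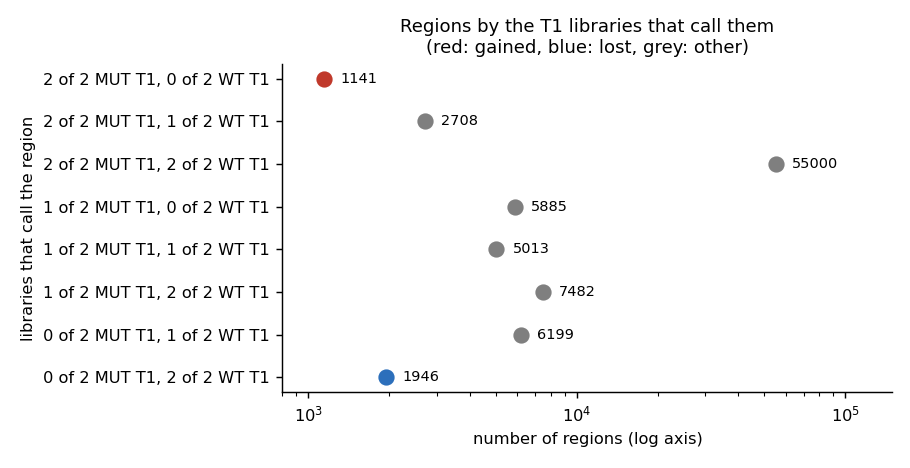
Number of regions (log axis) by how many of the 2 MUT T1 and the 2 WT T1 libraries call them. The 1141 gained (red) and 1946 lost (blue) regions are the smallest classes, and the 55000 regions called in all 4 libraries are the largest.

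Regions over promoters show what the calls look like in sequence. RefSeq promoter sequences (GRCm38.p6, the same build as mm10) span 250 bases before to 50 after each gene's start, and a promoter was counted with a region that covered at least 150 of its 300 bases. Gained regions covered the promoters of 26 genes, 15 of them protein-coding, and lost regions those of 39 genes, 20 of them protein-coding. The 3 strongest protein-coding promoters of each kind that were also gained or lost with equal numbers of peaks are printed here, leaving out predicted genes with Gm names. They were chosen after their values were seen. Capitals mark matches, on either strand, to 5 motifs. TGACCA is the motif known to be bound by BCL11A. The letters TGTGGT are the core site of RUNX proteins and GATAA that of the GATA family. The ETS family binds CCGGAA, and AP-1 binds TGANTCA. The BCL11A and RUNX letters can overlap, as in TGTGGTCA. Gained were Rasef, a Rab-family GTPase gene (chr4:73790553-73790852, minus strand), Tmem178b, a transmembrane protein gene (chr6:40110003-40110302, plus strand), and Col4a4, a basement membrane collagen gene (chr1:82586800-82587099, minus strand). Lost were Ecm1, an extracellular matrix protein gene (chr3:95739520-95739819, minus strand), Sash3, an adaptor gene of lymphocytes (chrX:48146186-48146485, plus strand), and Caly, which encodes a vesicle protein of neurons (chr7:140082499-140082798, minus strand).
Rasef: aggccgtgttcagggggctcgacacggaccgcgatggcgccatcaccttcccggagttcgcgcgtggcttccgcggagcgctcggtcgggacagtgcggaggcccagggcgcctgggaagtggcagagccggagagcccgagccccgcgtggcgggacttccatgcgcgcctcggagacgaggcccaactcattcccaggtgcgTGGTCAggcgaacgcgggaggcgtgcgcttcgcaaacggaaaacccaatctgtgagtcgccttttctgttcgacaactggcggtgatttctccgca
Tmem178b: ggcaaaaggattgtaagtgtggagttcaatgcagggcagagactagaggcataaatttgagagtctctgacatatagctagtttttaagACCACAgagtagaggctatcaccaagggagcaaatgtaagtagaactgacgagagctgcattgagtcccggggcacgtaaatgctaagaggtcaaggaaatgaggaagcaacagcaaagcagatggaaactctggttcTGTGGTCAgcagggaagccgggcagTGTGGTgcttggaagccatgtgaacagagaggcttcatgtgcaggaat
Col4a4: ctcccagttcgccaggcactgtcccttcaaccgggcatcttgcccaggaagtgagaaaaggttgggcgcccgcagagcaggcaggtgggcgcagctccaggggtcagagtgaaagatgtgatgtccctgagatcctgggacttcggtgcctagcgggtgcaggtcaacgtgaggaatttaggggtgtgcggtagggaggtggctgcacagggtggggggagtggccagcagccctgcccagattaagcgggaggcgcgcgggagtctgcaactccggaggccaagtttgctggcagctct
Ecm1: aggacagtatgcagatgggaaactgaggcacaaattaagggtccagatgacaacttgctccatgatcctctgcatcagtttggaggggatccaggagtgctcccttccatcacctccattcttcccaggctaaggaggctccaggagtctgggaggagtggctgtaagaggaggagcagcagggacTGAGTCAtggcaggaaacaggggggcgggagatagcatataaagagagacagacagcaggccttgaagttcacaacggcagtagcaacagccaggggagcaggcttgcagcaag
Sash3: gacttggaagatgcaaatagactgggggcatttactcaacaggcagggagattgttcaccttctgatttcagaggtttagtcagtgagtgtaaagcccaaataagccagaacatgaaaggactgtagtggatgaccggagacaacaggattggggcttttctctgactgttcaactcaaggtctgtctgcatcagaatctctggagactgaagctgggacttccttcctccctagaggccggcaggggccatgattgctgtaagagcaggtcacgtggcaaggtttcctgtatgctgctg
Caly: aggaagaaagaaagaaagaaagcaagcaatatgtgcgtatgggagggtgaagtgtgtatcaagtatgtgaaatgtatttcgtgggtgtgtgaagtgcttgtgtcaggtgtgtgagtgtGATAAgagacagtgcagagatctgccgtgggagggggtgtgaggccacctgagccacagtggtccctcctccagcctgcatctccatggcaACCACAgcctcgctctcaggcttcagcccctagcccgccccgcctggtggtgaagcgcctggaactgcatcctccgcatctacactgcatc

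The region over the Tmem178b promoter had a fold enrichment of 5.02 and 6.92 in MUT T1 and no peak in WT T1, and in the T2 libraries 5.22 and 4.14 in MUT T2 and again no peak in WT T2. Fold enrichment is the authors' own ratio, summit over local background, and describes a peak within its list. The Rasef promoter also stood at 5.02 and 6.92 in MUT T1 and had no peak in WT T1, but it was called in all 4 T2 libraries (4.76 and 4.69 in MUT T2, 5.99 and 5.80 in WT T2). The Col4a4 promoter behaved likewise, with 5.25 and 4.94 in MUT T1 and no peak in WT T1, and with 5.93 and 5.12 in MUT T2 libraries and 4.35 and 6.56 in WT T2 libraries. Among the lost promoters, Ecm1 had no peak in MUT T1, against 4.14 and 4.76 in WT T1, Sash3 had none in MUT T1, against 3.92 and 4.46 in WT T1, and Caly had none in MUT T1, against 3.74 and 3.92 in WT T1. All 3 were called in both MUT T2 libraries (Ecm1 at 3.84 and 4.51, Sash3 at 6.08 and 4.77, Caly at 4.60 and 4.07). The Tmem178b promoter was therefore the only one of the printed 6 whose calls separated MUT from WT in both populations.

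The motifs were counted with 1 promoter per gene. The letters TGACCA stood in 11 of the 26 promoters under gained regions (42.3%), in 2 of the 39 under lost regions (5.13%), in 10.5% of the 12682 under regions called in all 4 libraries and in 13.7% of all 26794 promoters. The 26 promoters lie under 25 distinct regions and the 11 under 10. Among protein-coding genes alone the letters stood in 5 of 15 gained promoters and 1 of 20 lost ones, against 12.6% of all. TGTGGT ran the other way, at 7.69% of gained and 25.6% of lost promoters, against 16.8% of all. GATAA stood in 19.2% of gained, 28.2% of lost and 25.9% of all promoters, and CCGGAA in 0 of 26 gained, 15.4% of lost and 15.3% of all. TGANTCA stood in 3.85% of gained, 15.4% of lost and 7.98% of all promoters. Gained and lost promoters held fewer CpG dinucleotides (median 9.5 and 5) than the promoters under regions called in all 4 libraries (median 21). The median was 7 over all promoters and 3 over those without a region, so gained promoters lay above and lost ones below that of all. These shares describe few promoters and were not tested, and a match does not show that a factor was bound.

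A smaller share of gained and lost regions than of all regions lay at gene ends, and the calling rule itself bears on this contrast. By the midpoint of the region, 5.70% of gained regions (65) and 4.98% of lost ones (97) lay within 1 kb of either end of a protein-coding gene, against 16.9% of all regions and 23.4% of those called in all 4 libraries. Gene bodies held 48.4% of gained regions (552) and 55.9% of lost ones (1088), against 45.5% of all regions. At sites 1 to 50 kb outside a gene lay 28.7% of gained (327) and 26.6% of lost regions (517), against 25.4% of all. Beyond 50 kb from any gene lay 17.3% of gained (197) and 12.5% of lost regions (244), against 12.2% of all. A region called in all 4 libraries can be neither gained nor lost. This applied to 89.1% of regions at gene ends and 58.9% of those in gene bodies. It applied to 62.2% of those 1 to 50 kb outside a gene and 55.6% of those further out. The shares of gained and lost regions were not set against those of other regions missing from some list. The contrast with all regions therefore does not show that changed calls avoid gene ends. The reference used gives gene spans without exons, so exonic and intronic sites inside gene bodies were not told apart. Gained and lost regions were also narrow and weak: their median width was 438 and 416 bp, against 846 bp for regions called in all 4 libraries. The smaller of the 2 fold enrichments had a median of 4.33 in gained and 4.01 in lost regions, against a median lowest fold of 6.29 in regions called in all 4. The rule itself bears on both contrasts. Weak regions are the more easily missing from a list, and widths join the peaks of 2 lists against those of 4. Other regions missing from some list were not compared. The weakest peak called at the genome-wide background had a fold of 3.19 and 3.62 in MUT T1 and of 3.30 and 3.26 in WT T1; where a region's local background is higher, a lower fold can pass. Within single lists the share of peaks at gene ends was 18.7% and 21.4% in MUT T1, against 19.4% and 19.1% in WT T1 (20.05% ± 1.87 and 19.2% ± 0.173, SD, n = 2 each, exact two-sided permutation p = 1.00).

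**Figure D2:**
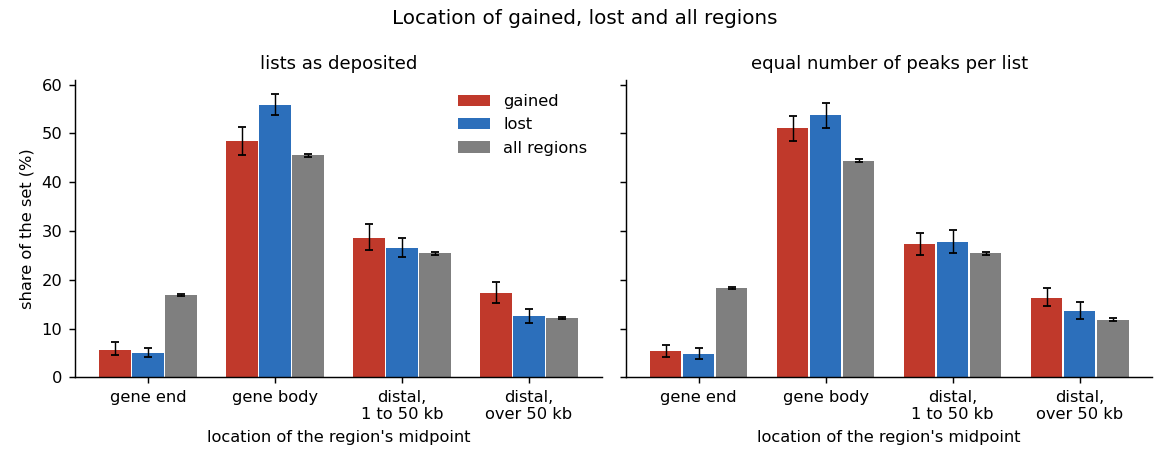
Share of gained, lost and all regions in each of 4 location classes, with lists as deposited (left) and with an equal number of peaks per list (right). Bars give the share in percent and whiskers its 95% Wilson interval, which covers counting error only, since regions are not replicates. Gene ends hold 5.70% of gained and 4.98% of lost regions as deposited, against 16.9% of all regions. Of all regions at gene ends 89.1% were called in all 4 libraries and so can be neither gained nor lost.

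At gene ends the strongest regions gained both as deposited and with equal numbers of peaks lay at Figla, Gm11677, Thbs4 and Slc39a12. The region at an end of Figla, a transcription factor gene of oocytes (chromosome 6, 86020883 to 86021383), had a fold enrichment of 6.94 and 7.90 in MUT T1 and no peak in WT T1. It was called at 8.75 and 9.96 in MUT T2 and at 9.86 in 1 WT T2 library. Thbs4, which encodes a thrombospondin of the extracellular matrix, stood at 5.56 and 8.17 in MUT T1, and the zinc transporter gene Slc39a12 at 5.25 and 5.93. The region at Gm11677, a predicted gene, stood at 6.39 and 6.59 in MUT T1 and was called in no other library of the study. Strong lost regions at gene ends lay at Rnaseh2a, the catalytic subunit gene of ribonuclease H2 (no peak in MUT T1, 6.76 and 9.52 in WT T1), at Yaf2, which encodes a component of a variant Polycomb complex (6.23 and 7.59 in WT T1), and at Nupr1l (7.22 and 7.51 in WT T1). Rnaseh2a had peaks in both MUT T2 libraries, at 8.73 and 5.97.

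Inside gene bodies the strongest gained regions lay in Itga6, Gm3739, Sh2d4a and Lmo3. The region inside Itga6, the alpha-6 integrin subunit gene of a laminin receptor (chromosome 2, 71852144 to 71852794), stood at 10.9 and 14.2 in MUT T1 libraries and at 12.8 and 11.9 in MUT T2 libraries, with no peak in any WT library. The one inside Lmo3, a LIM-only protein gene (chromosome 6, 138477715 to 138478065), stood at 9.81 and 10.2 in MUT T1 and at 7.60 and 6.58 in MUT T2, again with no peak in WT. The regions inside Sh2d4a and Gm3739 were also called in 1 or both WT T2 libraries, at 11.9 and 7.25 for Sh2d4a and at 6.56 for Gm3739. The strongest lost regions lay in Mid1, Galm, Cntln and Acvr1. Mid1 encodes a ubiquitin ligase and spans the pseudoautosomal boundary of the mouse X chromosome. Its region (X, 169978759 to 169979526) had no peak in MUT T1 or MUT T2, whereas WT T1 libraries stood at 11.3 and 15.9 and WT T2 libraries at 12.5 and 15.9. Galm encodes a galactose mutarotase, and its region (chromosome 17, 80180125 to 80180563) had a peak of 8.40 in 1 MUT T2 library and none in MUT T1, whereas WT T1 libraries stood at 10.5 and 11.5 and WT T2 libraries at 15.7 and 12.4. The regions of the centrosomal protein gene Cntln (9.67 and 10.7 in WT T1) and of Acvr1, the gene of a BMP type I receptor (9.73 and 9.25), were called in no MUT library and in neither WT T2 library.

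Among sites 1 to 50 kb outside a gene, the gained regions nearest to Slc25a54 (12.3 and 12.7 in MUT T1), Ptprt (10.5 and 10.8), Paqr9 (9.35 and 11.2) and Tm4sf4 (7.82 and 9.56) were the strongest. The one at Ptprt, a receptor tyrosine phosphatase gene, lay 10130 bp outside the gene (chromosome 2, 161511256 to 161512461) and was also called in both MUT T2 libraries (10.6 and 10.1) and in neither WT T2 library. Lost regions of this class lay near the annexin gene Anxa1 (10.3 and 10.9 in WT T1), the signal peptidase subunit gene Spcs3 (9.67 and 11.3), the synaptic gene Rims2 (11.1 and 8.85) and Nucks1 (8.79 and 9.55). The Rims2 region was the only one of these 4 with no peak in MUT T2 and peaks in both WT T2 libraries (10.4 and 7.60). More than 50 kb from any gene, gained regions had Iqub (10.1 and 9.40 in MUT T1), Ankrd50 (9.58 and 8.90), Gm815 (9.67 and 8.83) and Gm36448 (7.76 and 9.88) as their nearest genes. Lost ones of that class had Tle4, a co-repressor gene (9.90 and 9.79 in WT T1), Aebp2, a Polycomb cofactor gene (8.02 and 8.85), the ubiquitin ligase gene Cblb (8.002 and 7.69) and the splicing regulator gene Mbnl1 (10.4 and 7.46). In T2 the Mbnl1 region followed the genotype, with no peak in MUT T2 and 11.02 and 11.4 in WT T2. The Cblb region did the opposite, with 5.61 and 6.09 in MUT T2 and no peak in WT T2.

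**Figure D3:**
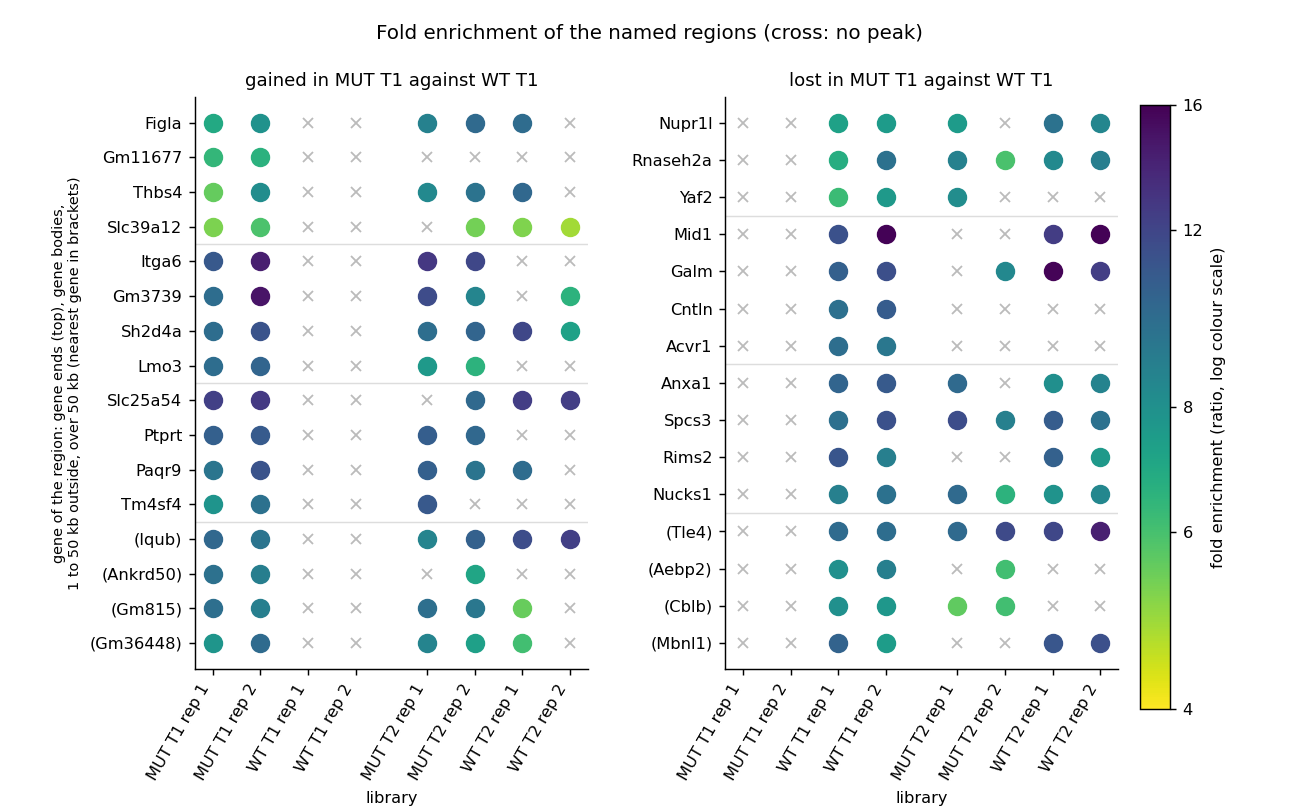
Fold enrichment (colour, log scale) of the 16 strongest gained (left) and 15 of the strongest lost (right) regions in each of the 8 libraries, with a cross where a list has no peak. Of the gained regions 3 have peaks in both MUT T2 and neither WT T2 library (Itga6, Lmo3, Ptprt), and of the lost regions 3 have peaks in both WT T2 and neither MUT T2 library (Mid1, Rims2, Mbnl1).

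Genes were then read by groups. A region was assigned to the protein-coding gene whose end or span held its midpoint, or otherwise to the nearest gene end within 50 kb, which placed 74952 regions, 944 of them gained (1.26%) and 1702 lost (2.27%). With equal numbers of peaks 494 of these 944 and 704 of these 1702 were also called. Genes with a region numbered 16973, of which 881 had a gained and 1538 a lost one, and 148 had both. Among 475 regions of 26 HSC transcription factor genes, 9 were gained (1.89%) and 21 lost (4.42%), and with equal numbers of peaks 2 of these 9 and 6 of these 21 were also called. Of the 475 regions 52.2% were called in all 4 libraries, against 65.65% for all genes, so more of them could change calls. Losses lay in 13 genes. Etv6, an ETS repressor gene needed by adult HSC, had 3 lost regions inside its body and none gained, with folds of 2.60 to 3.85 in WT T1. Meis1, a homeobox gene of stem cells, had 2 (3.26 and 3.86 in WT T1 for one, 4.09 and 3.69 for the other). Single losses were at Hlf (3.22 and 3.06 in WT T1), at Mllt3 (4.13 and 4.04), which supports self-renewal, and at Hoxb4 (2.80 and 2.82). Of the losses at these 5 genes, only the second at Meis1 and those at Hlf and Mllt3 were also called with equal numbers. Gains lay in 7 genes. Prdm16, a transcriptional regulator gene of long-term HSC, had 2 gained regions in its body, at 3.03 and 4.17 and at 2.61 and 3.49 in MUT T1. Neither was also gained with equal numbers of peaks. The second was called in all 4 T2 libraries (2.77 and 2.44 in MUT T2, 3.10 and 3.03 in WT T2). Mecom, which encodes the HSC factor EVI1, had both kinds, with a gained region 333 bp from a gene end at 2.09 and 2.50 in MUT T1, and 3 lost regions in its body at 2.11 to 5.45 in WT T1. Gfi1b, a repressor gene of blood progenitors, had both as well (a gain at 2.25 and 2.28 in MUT T1, a loss at 5.59 and 6.03 in WT T1). The Mecom gain and the Gfi1b loss were also called with equal numbers. The Mecom losses and the Gfi1b gain were not.

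Genes that act with BCL11A, together with the globin genes, had 4 gained (2.16%) and 6 lost (3.24%) of 185 regions, against 1.26% and 2.27% for all genes. Of the 185 regions 57.3% were called in all 4 libraries, against 65.65% for all genes, so more of them could change calls. With equal numbers of peaks 2 of these 4 gains and 1 of these 6 losses were also called. Sox6, which silences fetal globin together with BCL11A, had 2 gained regions deep in its body (4.53 and 3.62, and 3.88 and 4.28 in MUT T1). The first lost its call after thinning to equal depth and at a stricter threshold, and the second was not gained with equal numbers of peaks. Arid1b, a subunit gene of the BAF remodelling complex, had 1 gained (3.48 and 4.38 in MUT T1) and 3 lost regions (2.77 to 3.85 in WT T1). The CoREST gene Rcor1 had 1 lost region (no peak in MUT T1, 3.06 and 3.26 in WT T1) that no T2 library called. At Bcl11a itself none of 22 regions was gained or lost, and 12 were called in all 4 libraries. The number of its regions called was 18 and 14 in MUT T1, against 19 and 18 in WT T1. The region at the gene end (chromosome 11, 24076103 to 24077743) stood at 2.87 and 3.82 in MUT T1 and at 2.79 and 2.90 in WT T1. The strongest, 27027 bp outside the gene (chromosome 11, 24049131 to 24049943), stood at 11.9 and 12.3 in MUT T1 and at 12.9 and 12.4 in WT T1. The peak lists do not tell a transgene copy of Bcl11a from the chromosomal gene where they share sequence.

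Signalling and adhesion genes were read in the same way. Of 297 regions at TGF-beta, BMP and niche signalling genes, 1 was gained (0.337%) and 9 were lost (3.03%), and with equal numbers of peaks the gain and 3 of the losses were also called. The gained one lay at an end of Tgfbr2, the type II TGF-beta receptor gene (3.62 and 5.34 in MUT T1), and another region in the body of the same gene was lost (3.62 and 4.31 in WT T1) and was called in both MUT T2 libraries. Lost regions included 2 inside Angpt1, a niche ligand gene (4.22 and 3.56, and 3.11 and 3.25 in WT T1), and 1 at Ski, a repressor gene of SMAD signalling (2.51 and 3.25 in WT T1). Integrin and adhesion genes had 3 gained (1.31%) and 5 lost (2.18%) of 229 regions, of which 2 and 1 were also called with equal numbers, with a gain inside Itgb8 (5.70 and 4.61 in MUT T1) and a loss inside Cd44, a hyaluronan receptor gene (2.93 and 3.37 in WT T1). HSC surface and cytokine receptor genes had 2 gained (1.43%) and 3 lost (2.14%) of 140, close to the 1.26% and 2.27% of all genes. Both gains were at Kit, the stem cell factor receptor gene: 1 at a gene end (3.28 and 4.67 in MUT T1) and 1 outside the gene (4.51 and 5.27 in MUT T1), and neither was also gained with equal numbers of peaks. The Kit region outside the gene was called in all 4 T2 libraries. The losses were at Il6st, the gp130 cytokine receptor gene (5.89 and 8.66 in WT T1), at Fgd5, a marker gene of long-term HSC (5.19 and 5.13), and at Cd27 (3.54 and 3.83). The 3 losses were also called with equal numbers. HSC aging genes had 1 gained (0.621%) and 2 lost (1.24%) of 161 regions, of which the gain alone was also called with equal numbers.

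Genes of blood lineages had lost shares on either side of the 2.27% of all genes, whose gained share was 1.26%. Erythroid genes had 0 gained and 4 lost (5.0%) of 80 regions, among them 1 each at Epb42 (4.52 and 5.34 in WT T1), Epb41 and Add2, which encode proteins of the red cell membrane and its skeleton. Megakaryocyte and platelet genes had 0 gained and 4 lost (3.39%) of 118, at the thrombin receptor gene F2rl3 (5.88 and 6.32 in WT T1), the von Willebrand factor receptor gene Gp1ba (4.82 and 4.10) and Fli1, which had 2. The Fli1 region starting at 32478002 was called in all 4 T2 libraries. B lymphoid genes had 1 gained (0.602%) and 5 lost (3.01%) of 166, of which 3 lay inside Bach2 (3.04 to 6.06 in WT T1), a repressor gene of B cells. T and NK lymphoid genes had 3 gained (2.33%) and 1 lost (0.775%) of 129. One gain lay inside Tbx21, the T-bet gene (3.56 and 3.98 in MUT T1, 3.41 and 3.29 in MUT T2, no peak in WT), while Themis, a T-cell development gene, had a gain 14663 bp outside the gene (5.02 and 6.59 in MUT T1) and a loss in its body (8.96 and 7.46 in WT T1). Granulocyte and monocyte genes had 1 of each among 98 regions, a gain near the chemokine receptor gene Ccr2 (5.60 and 5.27 in MUT T1, 3.80 and 5.02 in MUT T2, no peak in WT) and a loss inside the myeloperoxidase gene Mpo (3.34 and 3.99 in WT T1, but also 3.91 and 4.52 in MUT T2 and no peak in WT T2). With equal numbers of peaks the losses also called numbered 1 for erythroid, 3 for megakaryocyte and platelet and 2 for B lymphoid genes.

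Inflammation and NF-kB genes had 2 gained (1.55%) and 6 lost (4.65%) of 129 regions, against 1.26% and 2.27% for all genes. With equal numbers of peaks both gains and 2 of the losses were also called. The cytokine gene Il1b had a gained region 4135 bp outside it (5.25 and 5.27 in MUT T1) and a lost one 22488 bp outside (5.60 and 6.60 in WT T1), and Il6 had 2 lost regions, one at 7.31 and 5.13 and one at 6.37 and 3.73 in WT T1. Of the Il6 losses only the first was also called with equal numbers. Interferon response genes had 0 gained and 4 lost (3.64%) of 110, 3 of them in Irf2, which encodes an antagonist of interferon signalling (2.71 to 5.25 in WT T1). Of these 4 losses 1 was also called with equal numbers. Cell cycle and survival genes had 2 gained (1.11%) and 7 lost (3.89%) of 180, and both gains and 4 of the losses were also called with equal numbers. The gains lay in E2f3 (5.38 and 4.71 in MUT T1) and in Bcl2 (4.62 and 5.53 in MUT T1), and E2f3 also had a lost region (3.37 and 3.75 in WT T1), not called with equal numbers. A lost region 14588 bp outside Cdkn1a, the p21 cell cycle inhibitor gene, stood at 3.54 and 3.62 in WT T1. AP-1 and immediate early genes had 2 gained and 2 lost (1.33% each) of 150, and stromal and endothelial genes 2 gained (1.20%) and 3 lost (1.80%) of 167. These shares were not tested, and the regions of a gene are not replicates.

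**Figure D4:**
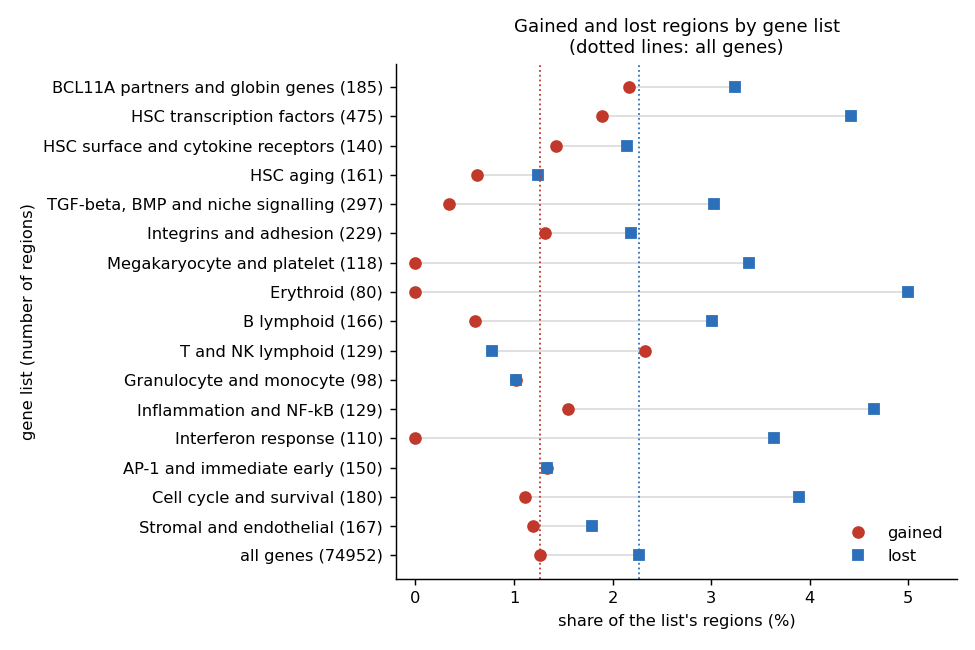
Share of the regions assigned to each of 16 gene lists that were gained (red circles) or lost (blue squares), in percent of the list's regions (number in brackets), with the shares for all genes as dotted lines. All genes had 1.26% gained and 2.27% lost, HSC transcription factors 1.89% and 4.42%, and T and NK lymphoid genes 2.33% and 0.775%. Among regions also called with equal numbers of peaks, gains outnumbered losses in T and NK lymphoid genes (2 and 1), BCL11A partners and globin genes (2 and 1), integrins and adhesion (2 and 1), HSC aging (1 and 0) and granulocyte and monocyte genes (1 and 0). In the other lists losses were as many or more, and over all genes there were 494 gains and 704 losses. Counts this small do not set one list apart from another.

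Some genes gathered several changed regions. Camk2d, a calcium/calmodulin-dependent kinase gene, had 4 gained and 1 lost of 26 regions, and Tgm3, a transglutaminase gene, 3 gained and 0 lost of 9. Dennd1a, Nrg1 and Pde4d each had 3 gained and 2 lost regions. On the other side 22 genes had 3 or more lost regions, led by Mbnl1 (4 of 25) and Oxr1 (4 of 24). None of the 22 kept 3 losses with equal numbers of peaks: Mbnl1 had 1 that was also called, Oxr1, Bach2 and Ptprc had 2, and Etv6 and Mecom had 0. Of the genes rich in gains, Camk2d kept 3 gained regions and Tgm3, Dennd1a and Nrg1 kept 2. Haematopoietic genes among the 22 with 3 or more lost regions were Ptprc, the CD45 gene (3 of 11), Bach2 (3 of 40), Etv6 (3 of 29), Mecom (3 of 57), Irf2 (3 of 26) and Wt1 (3 of 10). The others were Arid1b, Elovl6, Epb41l4b, Exoc6, Med27, Ralgapa2, Sh3kbp1, Slc39a11, Smndc1, Tcf7l1, Tiam2, Utrn, Ywhaz and Zdhhc14. These genes were long and rich in regions: their median span was 234 kb and their median number of regions 21, against 22.9 kb and 3 regions for genes with any region.

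Along the genome the lost share ranged from 1.64% of regions on chromosome 12 to 2.62% on X. The gained share ranged from 0.777% on chromosome 18 to 2.45% on chromosome 14, where 84 regions were gained and 78 lost. Of 263 windows of 10 Mb with at least 50 regions, the first 10 Mb of chromosome 14 had the highest gained share (10 gained and 1 lost of 95 regions, 10.5%). It holds the Gm3739 region described above. Of its 95 regions 16 were called in both MUT T2 and neither WT T2 library, against 3249 of all 85374 regions (3.81%). On the same chromosome the gained share was 4.95% at 10 to 20 Mb and 4.98% at 50 to 60 Mb, above the 1.34% of all regions. It was 0.683% at 20 to 30 Mb and 0.792% at 60 to 70 Mb, below that of all regions. High gained shares were not confined to chromosome 14. They were 8.0% at 70 to 80 Mb of chromosome 4 (4 of 50 regions) and 5.10% at 20 to 30 Mb of chromosome 1 (5 of 98 regions).

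The T2 libraries gave another reading of regions chosen in T1. A T1 gained region was called in 67.7% and 61.7% of cases in the 2 MUT T2 libraries, against 39.6% and 30.4% in the 2 WT T2 libraries (64.7% ± 4.28 and 35.0% ± 6.51, SD, n = 2 each, difference 29.7 points, exact two-sided permutation p = 0.333, the smallest possible). A T1 lost region was called in 51.3% and 39.7% of cases in MUT T2, against 36.0% and 26.3% in WT T2 (45.5% ± 8.21 and 31.1% ± 6.90, difference 14.4 points, exact permutation p = 0.333). All T1 regions were called in 83.4% and 79.9% of cases in MUT T2 and in 75.7% and 70.4% in WT T2, a difference of 8.57 points. The WT T2 lists were the shallower ones (background 2.45 and 1.89, against 3.21 and 3.10 in MUT T2), which bears on all 3 sets. With an equal number of peaks in all 8 lists, and regions chosen again from the shortened T1 lists (1439 gained, 1384 lost), the difference was 9.56 points for gained regions (59.3% and 59.1% in MUT T2, 48.2% and 51.2% in WT T2, exact permutation p = 0.333) and −1.08 points for lost regions (45.0% and 39.1% in MUT T2, 45.2% and 41.0% in WT T2, exact permutation p = 0.667). Among all regions it was 1.55 points. Gained regions were thus called more often in both MUT T2 than in both WT T2 libraries in either reading. For lost regions the sign of the difference changed between the readings, and with equal numbers the MUT T2 and WT T2 libraries overlapped.

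Read region by region, 202 of the T1 gained regions (17.7%) were called in both MUT T2 and neither WT T2 library, and 9 showed the reverse, against 3.81% and 0.419% of all regions. Of the T1 lost regions 56 (2.88%) were called in both WT T2 and neither MUT T2 library, and 161 (8.27%) showed the reverse. At sites 1 to 50 kb outside genes 22.0% of 327 gained regions repeated, against 4.46% of all regions of that class with these T2 calls, and at gene ends 10.8% of 65, against 0.977%. No T2 library called 146 gained (12.8%) and 456 lost regions (23.4%), against 9.15% of all regions. A change of calls in either T2 direction is open only to regions that are missing from some list, which gained and lost regions are more often than all regions are, so these shares were not tested against each other.

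**Figure D5:**
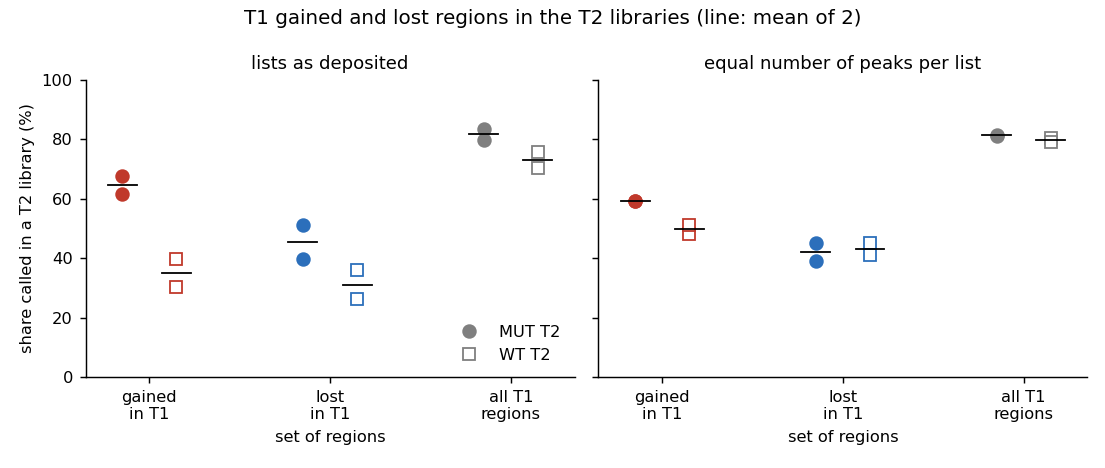
Share of T1 gained, T1 lost and all T1 regions called in each MUT T2 (filled circles) and WT T2 (open squares) library, with lists as deposited (left) and with equal numbers of peaks (right); lines mark the mean of 2 libraries. Gained regions are called in 67.7% and 61.7% of cases in MUT T2, against 39.6% and 30.4% in WT T2, and in 59.3% and 59.1% against 48.2% and 51.2% with equal numbers.

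Regions called in all 4 libraries were compared by the rank of their fold enrichment within each library, given as a percentile from 0 to 100. No region of 55000 passed the test of MUT T1 against WT T1 (limma on normal scores of the ranks, Benjamini-Hochberg adjusted p below 0.05 in 0.00%, lowest adjusted p = 0.630). With the replicate number as a block none passed either, and the lowest adjusted p was 0.0756 (limma). With 2 libraries against 2 this does not show that no region differed. At an unadjusted p below 0.05 there were 2911 regions (5.29%), of which 1266 (2.30%) were higher and 1645 (2.99%) lower in MUT T1. The 2 groups did not overlap in 9551 regions that were higher (17.4%) and in 8965 that were lower (16.3%) in MUT T1. With 2 libraries against 2, 1 of the 6 arrangements of the libraries separates the groups in each direction, so these counts do not by themselves show a difference. The median absolute difference between replicates was 9.32 points in MUT T1 and 6.80 points in WT T1. The MUT T1 pair also had the lowest rank correlation of all pairs (Spearman 0.837 across regions), the WT T1 pair the highest (0.898), and pairs across groups lay between (0.841 to 0.884). These correlations are across regions, which are not independent replicates.

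The regions with the largest differences are described here without passing the test. A region inside Fggy, a carbohydrate kinase gene (chromosome 4, 95884678 to 95885370), stood at percentiles 85.1 and 89.5 in MUT T1, against 7.54 and 25.3 in WT T1. Its fold enrichment was 9.76 and 11.53 in MUT T1 and 4.01 and 5.59 in WT T1, and in T2 it stood at percentiles 75.2 and 82.2 in MUT T2 and 34.6 and 40.0 in WT T2. The other 7 of the 8 highest lay near the predicted gene Gm42346 (a pair of regions), inside Tgm6, at an end of Gm5784, near Dnajc15, inside Sergef and near Ube2e3, with mean percentiles of 63.8 to 82.2 in MUT T1 and 8.03 to 20.9 in WT T1. A region inside Esrrg, an orphan nuclear receptor gene (chromosome 1, 188188619 to 188189353), had the largest difference in the other direction, at percentiles 11.1 and 13.1 in MUT T1, against 89.1 and 71.1 in WT T1. The other 7 of the 8 lowest lay inside the chloride channel gene Cftr, the serotonin receptor gene Htr2c, Camsap2, Myo16, Rab31 and Phkb, and far from genes with Rab38 as the nearest, with mean percentiles of 13.6 to 42.6 in MUT T1 and 68.9 to 96.0 in WT T1. The adjusted p of these 16 regions ranged from 0.630 to 0.886 (limma).

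By location, the median difference in rank was +1.73 points at gene ends, −0.0659 in gene bodies, −0.749 at sites 1 to 50 kb outside genes and −1.12 beyond 50 kb, against +0.169 over all regions. By list it was highest for HSC aging genes (+1.79) and TGF-beta, BMP and niche signalling genes (+1.74) and lowest for B lymphoid genes (−1.99) and erythroid genes (−0.872). Of 248 regions of HSC transcription factor genes called in all 4 libraries, 9 were higher and 0 lower in MUT T1 at an unadjusted p below 0.05 (limma; 3.63% and 0%, against 2.30% and 2.99% of all regions), with a median of +0.828 points. No region of any list passed the adjusted threshold. A test of the difference between T1 and T2 (interaction in limma, 49577 regions called in all 8 libraries) also passed in 0 regions (0.00%), with 1581 positive and 1954 negative differences at an unadjusted p below 0.05 and a lowest adjusted p of 0.688. Of 8558 regions that did not overlap and were higher in MUT T1, 17.9% were higher and 23.6% lower in MUT T2 without overlap, against 18.8% and 21.5% of all 49577 regions. Of the 8078 lower in MUT T1, 18.0% were lower and 19.8% higher in MUT T2.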

How the data were processed

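ATAC-seq peaks of 4 T1 libraries (2 MUT, 2 WT) and, as a further reading, 4 T2 libraries were used. Each library was made from 5000 nuclei, treated with transposase for 30 min at 37 °C per the labels' protocols. Per the submitters' processing notes, Bowtie2, SAMtools and MACS2 were used with mm10; versions and any shift of cut sites for the transposase are not given in the sources used here. The authors deposited 1 narrowPeak list per library, so replicates were not pooled. The deposited columns used were the fold enrichment, a ratio of summit to local background, the −log10 of the p-value and of the q-value, and the summit's offset. The deposited score was not used. The lowest deposited −log10 q-value was 3.00. Summit pileup and local background were solved from that ratio and the −log10 p-value, and pileups came out whole, within 0.001 of the deposited −log10 p-value, for at least 99.9986% of peaks. Depth is known only through this background, and weak regions can be missing from a list for lack of depth.

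Regions were assigned to 21627 protein-coding genes of a RefSeq table (GRCm38.p6); 378 of 381 genes in 16 lists matched. Ranks were tested with limma 3.58.1 in R 4.3.3, without a replicate block, because the labels do not say that equally numbered libraries share an animal or a day. Deviations of equally numbered libraries hardly correlated (Pearson 0.0281 across regions), which does not show that the number is without effect. The numbers do divide the libraries by Y-linked peaks. The lowest adjusted p was 0.630 without the block and 0.0756 with it (limma). Other work used Python 3.11.15, pandas 2.3.3 and scipy 1.17.1, and the steps were tested on simulated data. Members and lists were chosen with earlier results of these data known. Named were the 4 strongest gained and lost regions per location class among those that held with equal numbers of peaks, list regions under the same condition, genes with 3 or more gained or lost regions, the 8 highest and 8 lowest by rank difference, and Bcl11a; other list regions and promoters were named after their values were seen. Alternatives were an equal number of peaks, thinning to equal depth, −log10 q of at least 5, windows of 250 bp on each side of summits, regions merged over 8 lists, another gene end distance, other scales for the rank test, and each library left out in turn. Regions of some genes are not reported here by name, though they count in the totals. Sequences of peaks outside promoters were not used here.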

Additional observations from a re-analysis of the deposited data

Results flagged for a closer look

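Calls at 8 named regions ran one way in T1 and the other way in T2. At an end of Mecom both MUT T1 lists (smaller fold enrichment 2.09) and neither WT T1 list held a region, while neither MUT T2 list and both WT T2 lists (2.28 and 2.00) held it. The reverse held for 7 lost regions, which had no peak in MUT T1 and WT T2 and were called in both WT T1 and both MUT T2 lists. The smaller of the WT T1 values was 7.69 at Cblb, 4.45 at Irf2, 4.18 at Msi2, 4.03 at Sp7, 3.54 at Cdkn1a, 3.34 at Mpo and 2.51 at Ski. The MUT T2 values at these regions ranged from 2.49 and 2.54 at Ski to 5.61 and 6.09 at Cblb. The difference between T1 and T2 was not tested at these regions, since the test of ranks needs a peak in every library. The MUT T1 replicate 2 list and both WT T2 lists had the lowest backgrounds (2.03, 2.45 and 1.89 fragments), and the part of depth in these calls was not tested.

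Chromosome Y was outside the counts, and 1 of its regions had peaks in both MUT T1 lists (10.3 and 9.88) and in neither WT T1 list. It lies at 90761351 to 90761817 and was also called in both MUT T2 libraries (6.41 and 7.80) and neither WT T2 library. It was called in libraries numbered 2 as well, which had no peak at the 4 Y-linked genes. The Mid1 region on X, in a gene that spans the pseudoautosomal boundary, had the opposite calls in all 8 libraries. Peak lists do not tell X from Y where the 2 share sequence, and the part of this in these calls was not tested.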

How the results depend on the processing

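The numbers of gained and lost regions stayed within 1.5 times of 1141 and 1946 with equal numbers of peaks (1456 and 1477), thinning to equal depth (1346 and 1845), a stricter threshold (1058 and 1912), summit windows (1331 and 2125) and regions merged over 8 lists (1140 and 1934). Gains were 37.0% of changed regions as deposited, 42.2% after thinning and 49.6% with equal numbers. Leaving out each library in turn gave 2205 to 5421 gained and 2913 to 8543 lost regions, since fewer calls were then required; without MUT T1 replicate 2 gains were the larger count (5421 against 2913). With a gene end taken as 2 kb, 9.11% of gained and 10.3% of lost regions lay at gene ends, 52.8% of lost regions in gene bodies and 24.4% at sites 2 to 50 kb outside. With equal numbers of peaks the T2 difference was 9.56 points for gained and −1.08 points for lost regions. The rank test passed in 0 regions under each alternative, including the replicate block (limma, lowest adjusted p 0.0756, with 1477 higher and 1920 lower at an unadjusted p below 0.05) and all 8 libraries in the fit (lowest adjusted p 0.174); a fit without 1 library assumes that the lone sample varies like the other group. Of all regions gained and lost as deposited, 82.2% and 72.1% kept their call after thinning. At the stricter threshold 78.6% and 85.4% kept it, and with equal numbers of peaks 52.8% and 40.7%. The 70 named regions were chosen among those that held with equal numbers. Of these, all but 4 kept their call after thinning (Sox6, Il6, Tgfbr2 and Hlf lost it). All but 2 kept it with regions merged over 8 lists (Thbs4 and Bach2), all but 1 at the stricter threshold (Sox6), and all with summit windows. A list records peaks above a threshold, so absence from it does not show closed chromatin.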
